A study of Homo sapiens with 6 samples.

Results

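The large clusters of zinc finger genes on chromosome 19 were described through the open regions that ATAC-seq found in them. Members are all deposited peaks that overlap 1 of 3 hg19 intervals: 19:20000000-24000000 (4 Mb, called the 20 Mb cluster here), 19:52300000-54000000 (1.7 Mb, the 52 Mb cluster) and 19:56100000-59100000 (3 Mb, the 56 Mb cluster). After peaks of the 6 libraries that overlapped by at least 1 bp were merged, the intervals held 410 regions of 167726 on the autosomes and X, with 148, 85 and 177 in the 20, 52 and 56 Mb clusters. The rest of chromosome 19 held 4202 regions. No region crossed a bound. Regions went on past the bounds: 19:24000481-24000696 and 19:54000542-54001515 lay just outside the upper ends of the 20 and 52 Mb clusters, and 19:56098414-56099035 just outside the lower end of the 56 Mb cluster, where the first region inside was 19:56101986-56102364.

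ATAC-seq cuts open chromatin with a transposase and sequences the fragments. It was run on 22Rv1, an established human prostate cancer cell line grown in RPMI medium with serum. All 6 libraries carry the label FOXA1_dTAG, at 0 h, 1 h or 24 h with 2 libraries each. FOXA1 is a pioneer factor, a forkhead protein that can bind closed chromatin, and marks luminal cells of the prostate. A dTAG fused to a protein lets a small molecule send it to degradation, so the series asks what open chromatin does when FOXA1 is removed. The 0 h cells carry the tag as well, and no untagged cells are among the samples used here. The labels give neither the degrader nor its dose, nor whether the tagged line is 1 clone, nor whether replicates are separate cultures, so the p-values below measure a spread that may be technical. FOXA1 itself was not measured in these files. Genes that define prostate cells could not be checked, because the hg19 annotation was not used here. In bulk libraries such as these, a region that closes in some cells and a region that closes partly in every cell cannot be told apart.

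Zinc finger genes of the KRAB family arose by tandem duplication, which left them in rows of related copies along chromosome 19. Their proteins read DNA with an array of zinc fingers, and the KRAB domain recruits TRIM28, which brings histone H3 lysine 9 trimethylation and silences transposable elements such as retroviral and SVA insertions. The gene bodies themselves lie in broad domains of that same mark, while their promoters are open in many cell types. In RefSeq on GRCh38.p14, 31 of the 33 protein-coding genes from ZNF682 to ZNF726, the outermost genes listed for the 20 Mb cluster, carry a zinc finger family symbol (93.9%). The cluster includes ZNF91, a repressor of SVA elements. From ZNF577 to ZNF813, listed for the 52 Mb cluster, it was 39 of 46 (84.8%). From ZNF582 to MZF1, listed for the 56 Mb cluster, it was 61 of 78 (78.2%), with ZIM3, whose KRAB domain serves in engineered repressors, and PEG3, an imprinted zinc finger gene, among them. On all of chromosome 19 it was 269 of 1451 genes (18.5%). These genes were listed from background knowledge, and their positions were not taken to hg19, so no single region below is assigned to a gene or promoter. The shares cover only the stretch between the outermost listed genes, which may not match the bounds of an interval. They do not describe any part of an interval outside that stretch.

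Open regions, counted as called peaks, were sparse in the clusters compared with the chromosome around them. Copy number and how uniquely reads map could not be checked from peak lists. Their part in the densities here, and in the heights given below, was not tested. The clusters held 37.1 and 40.0 peaks per Mb in replicates 1 and 2 of 0 h, 35.7 and 37.4 in those of 1 h, and 34.0 and 36.3 in those of 24 h. The rest of chromosome 19 held 71.3 and 76.8, 68.5 and 71.3, and 66.7 and 70.2 peaks per Mb in the same libraries. The density in the clusters was thus 0.519 ± 0.00487 (SD, n = 6) times that of the rest of the chromosome and lower in 6 of 6 libraries. The log2 ratio was -0.95, with p = 0.03125 in an exact two-sided sign-flip permutation test over libraries. It stayed at 0.03125 after Benjamini-Hochberg adjustment over 12 such tests, and this is the smallest value that 6 libraries allow. The test covers the spread between libraries only, not how far other stretches of chromosome 19 differ among themselves.

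The 3 clusters were not alike. The 20 Mb cluster was the sparsest, with 26.5 and 28.8 peaks per Mb in the 0 h libraries, 26.5 and 27.0 in the 1 h ones, and 22.8 and 25.3 in the 24 h ones. The 52 Mb cluster held 40.0 and 43.5, 40.0 and 45.3, and 41.8 and 42.4, and the 56 Mb cluster 49.7 and 53.0, 45.7 and 46.7, and 44.7 and 47.7. No library of the 20 Mb cluster reached the lowest library of the others. Relative to the rest of chromosome 19 in the same library, the mean ratio was 0.369 ± 0.0162, 0.596 ± 0.0308 and 0.676 ± 0.0155 (SD, n = 6 each) in the 20, 52 and 56 Mb clusters, each lower in 6 of 6 libraries with an adjusted p of 0.03125 in the same exact test. The 56 Mb cluster was 1.84 times and the 52 Mb cluster 1.62 times as dense as the 20 Mb cluster, and the 52 Mb cluster 0.883 times as dense as the 56 Mb cluster, each in the same direction in 6 of 6 libraries (exact sign-flip permutation test, p = 0.03125, adjusted p = 0.0402 over 9 tests between clusters).

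**Figure D1:**
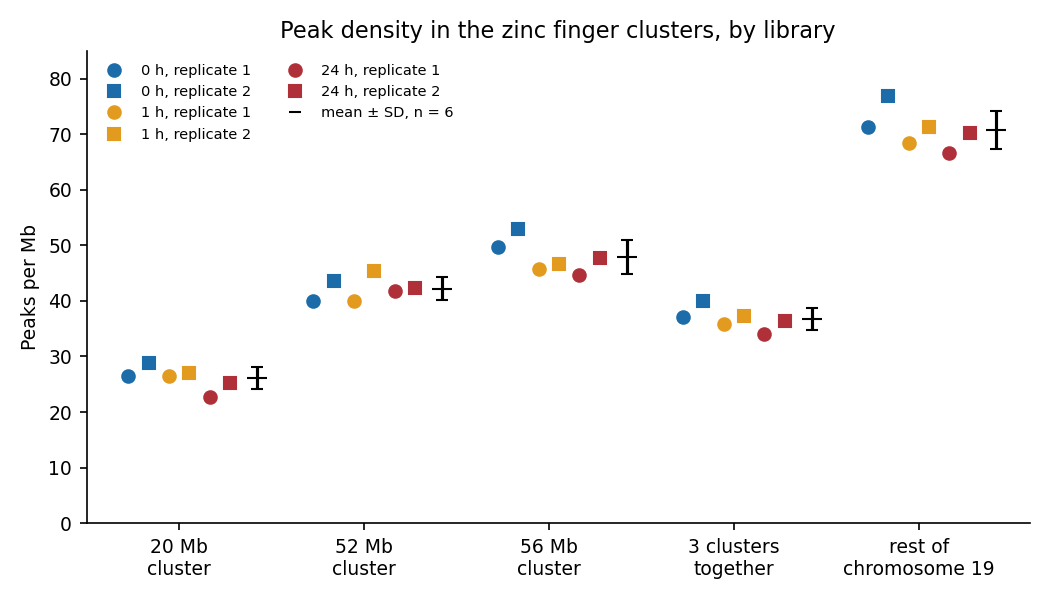
Peaks per Mb in each library (points; blue 0 h, orange 1 h, red 24 h) in the 3 zinc finger clusters, in all 3 together and in the rest of chromosome 19, with the mean and SD over 6 libraries (black). All points of the 20 Mb cluster lie between 22.8 and 28.8, below every other set, and those of the rest of chromosome 19 between 66.7 and 76.8, above every other set.

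Chromosome 19 is itself rich in open regions, and the contrast depended on what the clusters were set against. The rest of the autosomes and X held 40.3 ± 2.82 peaks per Mb and chromosomes 16, 17 and 22 held 49.9 ± 2.92 (SD, n = 6 each). Against the former, the 3 clusters together were lower by far less (log2 ratio -0.13) and the 20 Mb cluster was still lower (log2 ratio -0.62, lower in 6 of 6 libraries, exact permutation p = 0.03125). The 56 Mb cluster was higher there (0.25, 6 of 6 libraries, exact permutation p = 0.03125), and for the 52 Mb cluster the direction was not settled (0.07, 4 of 6 libraries higher, exact permutation p = 0.188). Of the 3 clusters, only the 20 Mb cluster was sparser than both the rest of its chromosome and the rest of the autosomes and X in 6 of 6 libraries.

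The regions were spread along the whole of each cluster. In the 20 Mb cluster, 1 of 40 windows of 100 kb held no region in any library, while all 17 and 30 windows of the 52 and 56 Mb clusters held at least 1, as did all but 8 of 472 in the rest of the chromosome. The median window held 4, 5 and 6 regions in the 20, 52 and 56 Mb clusters and 9 elsewhere on the chromosome. The fullest window within the clusters was 19:56100001-56200000, at the lower end of the 56 Mb cluster, with 19 regions, beside 25 in the fullest of the rest of the chromosome. The longest stretches without a peak were 186 kb at 19:20479245-20665625, 56.9 kb at 19:53700796-53757667 and 138 kb at 19:57442610-57580453.

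Peaks in the clusters were wider than elsewhere. Their median width in bp was 656 and 497 in the 0 h libraries, 745 and 656 in the 1 h ones, and 657 and 622.5 in the 24 h ones. In the rest of chromosome 19 it was 474 and 351, 506 and 462, and 428 and 408 bp, lower in each library. Widths in bp depend on each library's fragment length, so they were also ranked within each library's list, where 50 is the median peak of the list. The median width percentile was 79.1 ± 2.39 in the clusters and 61.8 ± 0.732 in the rest of the chromosome (SD, n = 6), a difference of 17.3 ± 1.80 that was positive in 6 of 6 libraries (exact sign-flip permutation test, adjusted p = 0.03125). The 52 and 56 Mb clusters had the widest peaks, at percentiles of 84.4 ± 2.19 and 81.6 ± 3.07, and did not differ beyond their spread (difference 2.84 ± 4.66, higher in 5 of 6 libraries, exact permutation p = 0.219, adjusted p = 0.246). In the 20 Mb cluster it was 69.0 ± 4.33, below both others in 6 of 6 libraries (adjusted exact permutation p = 0.0402 each). With fewer and narrower peaks than the other clusters, the 20 Mb cluster had 14.3 ± 1.20 kb of open chromatin per Mb, against 29.6 ± 1.78 and 34.0 ± 2.17 kb in the 52 and 56 Mb clusters and 38.2 ± 2.98 kb in the rest of chromosome 19.

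The 3 widest merged regions all lay in the 56 Mb cluster and were open in all 6 libraries. The widest, 19:57348885-57351440, spanned 2556 bp with folds of 5.29 and 5.61 in the 0 h libraries, 5.04 and 5.41 in the 1 h ones, and 5.35 and 5.69 in the 24 h ones. It ranked only at the 38.3 percentile by fold, so it was broad rather than high. The next were 19:56630977-56633263 (2287 bp, percentile 71.7) and 19:56164952-56166937 (1986 bp, percentile 64.2).

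The peaks that were present also ranked higher by height, at the median, than those of the rest of chromosome 19. Height is the authors' deposited fold, the ratio of the pileup at a peak's summit to its local background, and is given as a rank within a list because folds of different lists are not on 1 scale. The median fold percentile of cluster peaks was 69.8 and 70.0 in the 0 h libraries, 74.2 and 72.8 in the 1 h ones, and 75.2 and 73.5 in the 24 h ones. In the rest of chromosome 19 it was 53.9 and 54.3, 55.0 and 55.2, and 52.1 and 55.6, with no overlap between the sets. The difference was 18.2 ± 2.71 percentile points (SD, n = 6), higher in 6 of 6 libraries (exact sign-flip permutation test, adjusted p = 0.03125). The 52 Mb cluster stood highest, at 82.0 ± 2.35, and exceeded the 20 Mb cluster by 11.1 and the 56 Mb cluster by 13.4 points in 6 of 6 libraries (adjusted exact permutation p = 0.0402 each). The 20 and 56 Mb clusters were at 70.9 ± 3.42 and 68.7 ± 3.44 and did not differ beyond their spread (-2.24 ± 5.18, exact permutation p = 0.375).

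**Figure D2:**
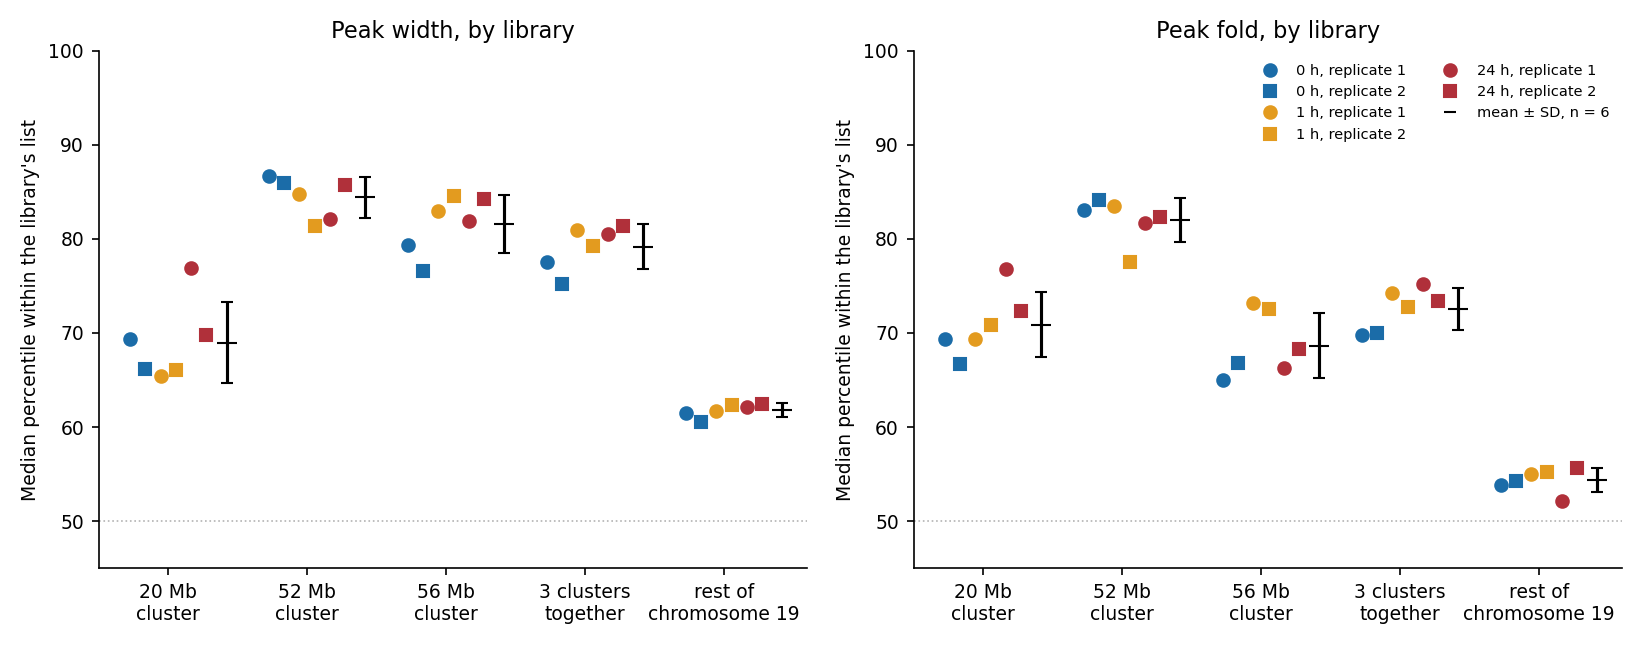
Median percentile of peak width (left) and of peak fold (right) within each library's list, for the peaks of each set (points, by library) with the mean and SD over 6 libraries (black); the vertical axes start at 45 and the dotted line marks the median of a list. All cluster points lie above those of the rest of chromosome 19, and the 52 Mb cluster is highest by fold in every library.

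The surplus sat at the very top of the lists. Of the cluster peaks, 30.9% ± 0.751 (SD, n = 6) ranked above the 90th percentile of their list by fold, with a range of 30.1% to 32.2% over libraries, against 12.0% ± 1.03 of the peaks in the rest of chromosome 19. The 20, 52 and 56 Mb clusters had 34.3% ± 2.88, 36.3% ± 5.84 and 25.8% ± 2.36 of their peaks there. The lowest decile held 7.87% of cluster peaks and 13.0% of those in the rest of the chromosome. In the deciles between, the clusters had no such surplus.

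**Figure D3:**
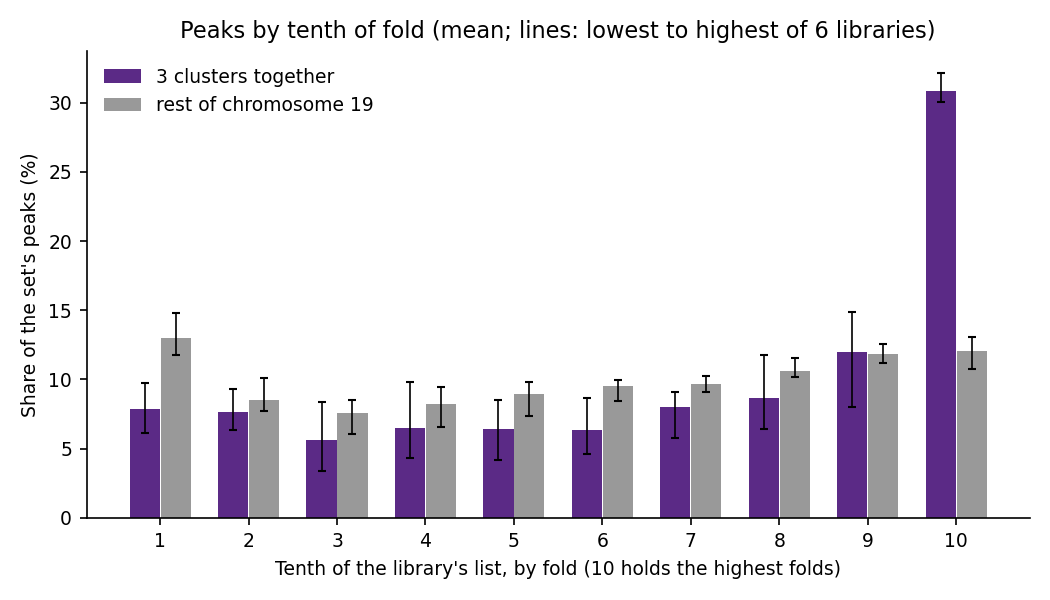
Share of peaks in each decile of a library's list by fold, from the lowest (1) to the highest (10), for the 3 clusters together (purple) and the rest of chromosome 19 (grey); bars are means over 6 libraries and lines run from the lowest to the highest library. The clusters' bar in the highest decile stands at 30.9% against 12.0%, and no library of the clusters falls below 30.1% there.

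A fold has 2 parts, and the clusters differed in both. The deposited fold and −log10 p give back the pileup (reads stacked at the summit) and the local background under the usual MACS2 formulas. In the 52 and 56 Mb clusters the median pileup was 1.76 ± 0.0952 and 1.99 ± 0.180 times that of the rest of chromosome 19 (SD, n = 6), and the background 1.17 and 1.38 times. In the 20 Mb cluster the pileup was 0.793 ± 0.124 times, higher in 0 of 6 libraries, and the background 0.571 ± 0.0558 times. Against the rest of the autosomes and X, both its pileup (19 to 28 against 15 to 22 reads) and its background (1.29 to 2.41 against 1.25 to 2.22) were higher in each library. Ranked by −log10 p in place of fold, an alternative chosen after seeing the data, the 20 Mb cluster exceeded the rest of chromosome 19 by only 3.69 ± 5.63 points, in 4 of 6 libraries (exact permutation p = 0.125). The 52 and 56 Mb clusters kept differences of 23.4 and 19.8 points in 6 of 6 libraries (adjusted exact permutation p = 0.0417 over 4 tests).

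Most of the high regions were open at every time. Of the 410 regions, 245 (59.8%) had a peak in all 6 libraries, 85 in 2 to 5 and 80 (19.5%) in 1. By cluster it was 76 of 148 (51.4%), 58 of 85 (68.2%) and 111 of 177 (62.7%) in all 6, beside 59.7% in the rest of chromosome 19 and 43.3% of all 167726 regions. Strength, the mean fold percentile over the libraries holding a region, had a median of 83.1 in these 245 regions and of 65.7 in the 2508 such regions of the rest of chromosome 19. A strength above 90 was found in 95 of the 245 (38.8%), against 363 of 2508 (14.5%). Per Mb this made 10.9 regions that were both constant and this high, or 8.5, 14.7 and 12 in the 20, 52 and 56 Mb clusters, against 7.68 in the rest of chromosome 19 and 3.22 in the rest of the autosomes and X. The clusters thus held fewer open regions than the chromosome around them but more of the highest ones by fold, in each of the 3. In the 20 Mb cluster the margin was small (8.5 against 7.68). Its median pileup was 0.793 times and its background 0.571 times that of the rest of chromosome 19. The median distance between neighbouring regions that were both constant and this high was 102, 55.7 and 30.7 kb in the 20, 52 and 56 Mb clusters.

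Most of the single highest regions by fold lay in the 20 Mb cluster, which held 7 of the 8 with the greatest strength. First was 19:21182421-21183186, with folds of 20.8 and 23.4 in the 0 h libraries, 21.5 and 20.4 in the 1 h ones, and 23.1 and 21.5 in the 24 h ones, above 99.9% of the peaks of every list. It was followed by 19:58544989-58545575 in the 56 Mb cluster, with folds of 19.2 and 19.3, 19.6 and 20.1, and 20.3 and 21.7. The others were 19:21264718-21265614, 19:21324558-21325338, 19:22816594-22817554, 19:20958814-20959804, 19:21541564-21542567 and 19:21579641-21580488, with folds between 16.3 and 22.0 in all libraries. All 8 were picked for their strength in all 6 libraries, so they could not be called lost. At the other end, the 3 weakest regions held by all 6 libraries were in the 56 Mb cluster, at 19:59032182-59032823, 19:59073401-59074620 and 19:56151929-56152924, with strengths of 5.39, 6.41 and 6.96.

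**Figure D4:**
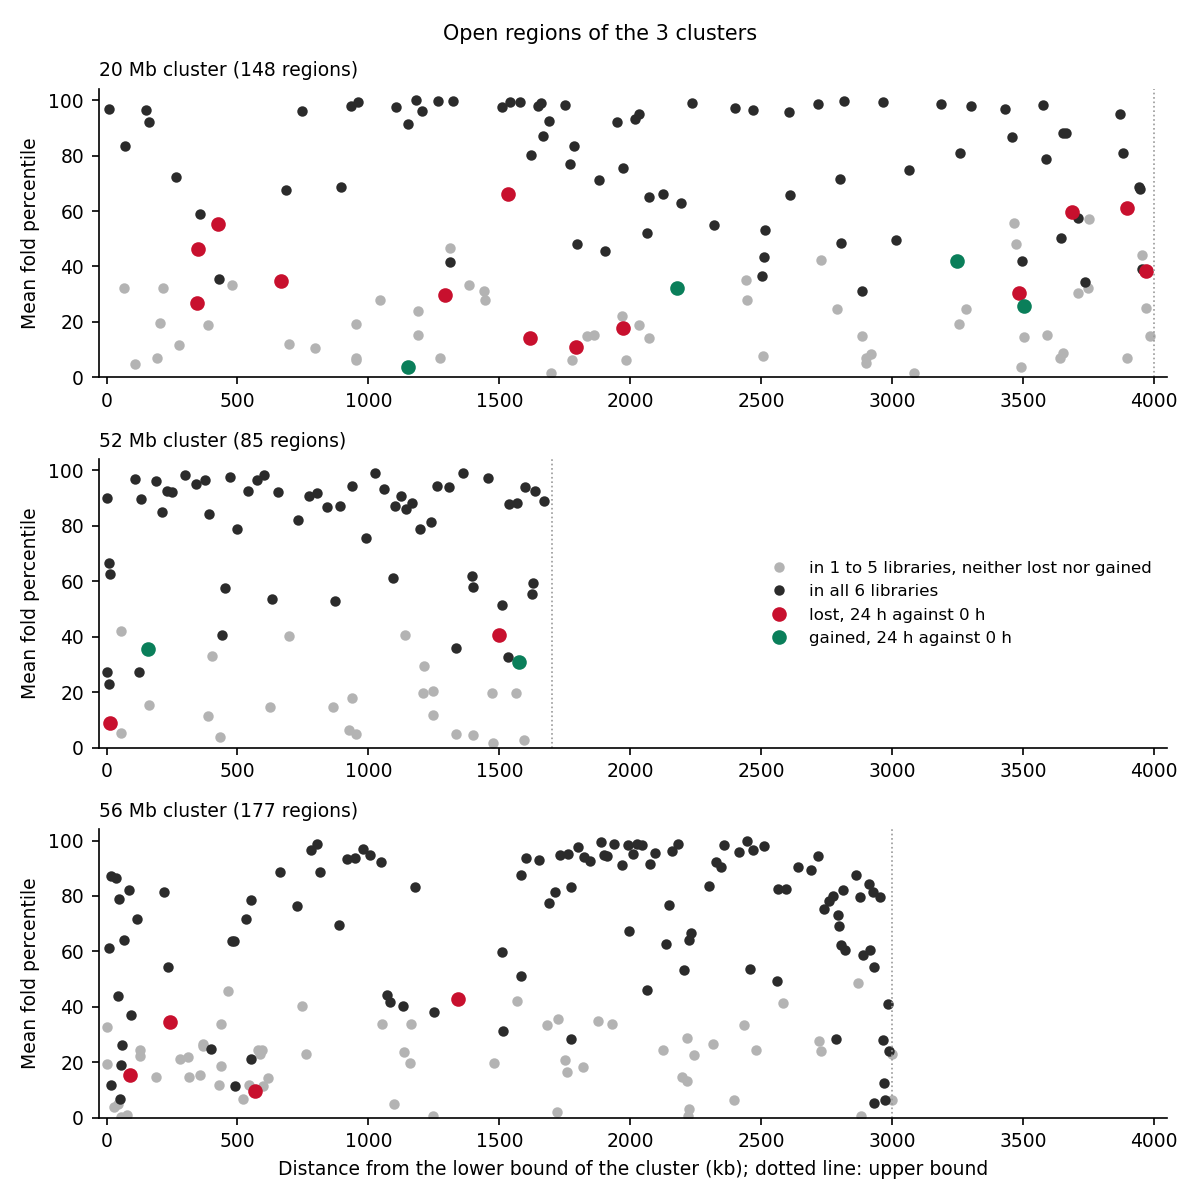
Each of the 410 regions by its distance from the lower bound of its cluster (kb) and its mean fold percentile over the libraries that hold it; black, held by all 6 libraries; grey, by 1 to 5; red, lost and green, gained at 24 h against 0 h. Regions near the top of the scale recur along each cluster and are nearly all black. Of the 19 lost regions, 13 are in the 20 Mb cluster, or 13.7% of its 95 held at 0 h (background 13.1%). Of the 6 gained, 4 are there, or 4.65% of its 86 held at 24 h (background 6.54%).

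The number of open regions in the clusters was lower at 24 h than at 0 h, as in the rest of the chromosome, without passing a test. Density averaged 38.6 ± 2.03 peaks per Mb over the 0 h libraries, 36.6 ± 1.14 over those of 1 h and 35.2 ± 1.63 over those of 24 h (SD, n = 2). The difference was -2.01 between 0 h and 1 h (p = 0.667) and -3.39 between 0 h and 24 h (p = 0.333, groups not overlapping) in exact two-sided permutation tests, which cannot go below 0.333 with 2 libraries against 2. With every list shortened to one length these differences were only -0.690 and -0.747 (exact permutation p = 0.667 each), and over peaks with a −log10 q of at least 10 they were -0.230 and -1.09. In the rest of chromosome 19 the differences were -4.17 and -5.63 peaks per Mb. The log2 ratio of the densities differed by 0.01 and -0.02, with signs that turned under alternatives. Relative depth was estimated indirectly, as each library's commonest recovered background, rounded to 1 decimal, per kb of its shortest peak. It was 10.3 and 8.11 in the 0 h libraries, 8.14 and 8.75 in the 1 h ones, and 7.48 and 7.35 in the 24 h ones. Small differences between these estimates are not resolved, and the part of depth in the lower densities was not tested. In the 20 Mb cluster density went from 27.6 ± 1.59 to 24.0 ± 1.77 and in the 56 Mb cluster from 51.3 ± 2.36 to 46.2 ± 2.12 between 0 h and 24 h, while in the 52 Mb cluster it was 41.8 ± 2.50 and 42.1 ± 0.416.

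The ranks of all cluster peaks as one set were higher at 24 h than at 0 h, without passing a test and not in every cluster. The median fold percentile went from 69.9 ± 0.179 in the 0 h libraries to 73.5 ± 0.992 after 1 h and 74.3 ± 1.24 after 24 h, and the median width percentile from 76.4 ± 1.69 to 80.1 ± 1.18 and 81.0 ± 0.603. Both later times lay above 0 h without overlap (exact permutation p = 0.333 each, the smallest possible; 0.527 after adjustment over 87 tests between times). The 52 Mb cluster went the other way without overlap, from a fold percentile of 83.6 to 82.0 and a width percentile of 86.3 to 83.9 between 0 h and 24 h (exact permutation p = 0.333 each). In the 56 Mb cluster the fold percentiles of 0 h and 24 h overlapped (difference 1.38), as did the percentiles of all cluster peaks by −log10 p (difference 3.70, exact permutation p = 0.667). Which peaks a list holds enters these medians. Over the 245 regions open in all 6 libraries, a set fixed by its presence at every time, the median percentile was 83.3 and 83.2 in the 0 h libraries, 83.7 and 83.9 in the 1 h ones, and 82.1 and 84.2 in the 24 h ones.

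Regions that disappeared were few and mostly weak, and most of them were in the 20 Mb cluster. A lost region is one with a peak in both libraries of the earlier time and in none of the later, and a gained region one with a peak in both later libraries and in none of the earlier. At 1 h, 14 of the 289 cluster regions held by both 0 h libraries were lost (4.84%), beside a background of 7.48% over all regions, and 4 of 285 were gained (1.40%, background 3.93%). At 24 h, 19 of 289 were lost (6.57%, background 13.1%) and 6 of 267 gained (2.25%, background 6.54%). From 1 h to 24 h, 13 of 285 were lost (4.56%, background 6.42%) and 2 of 267 gained (0.749%, background 3.85%). For the 3 clusters together, all 6 shares were below the background. In the rest of chromosome 19 the shares lost were 3.59%, 5.80% and 3.55%, each somewhat below that of the clusters, and the shares gained 1.81%, 2.87% and 2.18%, each above it.

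**Figure D5:**
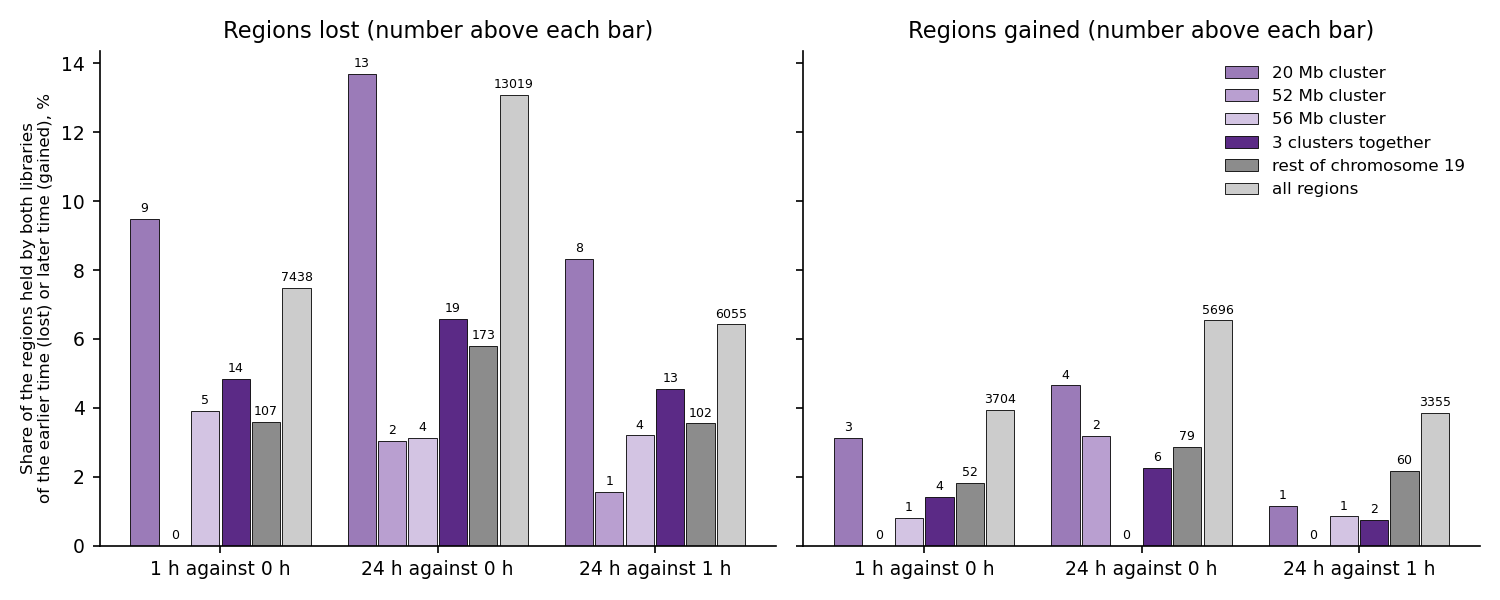
Share of regions lost (left) and gained (right) between times in each cluster, in the 3 together, in the rest of chromosome 19 and over all regions, with the number of regions above each bar. The bars of the 20 Mb cluster are the highest among the clusters in each lost comparison, at 9.47%, 13.7% and 8.33%, and those of all regions stand at 7.48%, 13.1% and 6.42%.

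By cluster, 13 of 95 regions were lost at 24 h in the 20 Mb cluster (13.7%), 2 of 66 in the 52 Mb cluster (3.03%) and 4 of 128 in the 56 Mb cluster (3.12%). At 1 h it was 9 of 95 (9.47%), 0 of 66 and 5 of 128 (3.91%). The shares of the 20 Mb cluster were close to the backgrounds of 13.1% and 7.48% over all regions, and those of the 52 and 56 Mb clusters were below them. In the rest of chromosome 19 the shares were 5.80% and 3.59%, below those of the 20 Mb cluster. Regions of 1 cluster are not replicates, so these shares were not tested against each other. Single libraries of the same time differed as well: of the peaks of 1 library, on average 9.12% had no peak in the other library of its time, against 15.96% of the peaks of a 0 h library that had none in a 24 h library and 9.53% in the reverse direction. In the rest of chromosome 19 these shares were 10.1%, 15.8% and 9.68%, and over all regions 15.4%, 26.7% and 17.4%.

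The share lost at 24 h was lowest among the strongest regions, with strength taken here over both 0 h libraries only. Of the cluster regions held at 0 h, 66.8% had a strength above 60, against 47.8% of all regions, and of these 3 of 193 were lost at 24 h (1.55%, beside 4.39% over all regions and 0.925% in the rest of chromosome 19). Between 30 and 60 it was 8 of 48 (16.7%, beside 16% and 6.81%), and below 30 it was 8 of 48 (16.7%, beside 29.5% and 16.4%). All 3 lost regions above 60 were in the 20 Mb cluster, among its 64. For regions that were strong, with a −log10 q of at least 10 in both 0 h libraries, 0 of 201 were lost at 1 h (background 1.51%) and 1 of 201 at 24 h (0.498%, background 4.02%). No strong cluster region was gained at 1 h (0 of 206, background 0.0338%) or 24 h (0 of 199, background 0.748%), or lost (0 of 206, background 0.0896%) or gained (0 of 199, background 0.151%) between 1 h and 24 h.

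The 1 strong region that was lost, 19:23688490-23689037 in the 20 Mb cluster, went down in steps. Its folds were 13.5 and 12.5 at 0 h and 4.58 and 4.62 at 1 h, and neither 24 h library held a peak there. It thus ranked above 94.8% and 88.1% of peaks at 0 h and above 28.0% in both 1 h libraries. Its −log10 q was 33.5 and 22.3 in the 0 h libraries, and 4.56 and 4.62 in the 1 h ones.

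The next strongest were gone by 1 h already. The region 19:21534428-21534822 had folds of 9.16 and 7.31 at 0 h, 19:23896744-23897054 had 8.40 and 6.79, and 19:20426358-20426650 had 7.64 and 6.27, with no peak in any 1 h or 24 h library. All 3 were in the 20 Mb cluster, and 19:57442220-57442609 in the 56 Mb cluster followed them at 1 h, with 6.49 and 5.22. Of the 289 regions held at 0 h, 11 had no peak in any later library and 6 had one in both 1 h libraries and none at 24 h. The latter include 19:20665626-20665881 (folds 5.35 and 7.83 at 0 h, 4.58 and 3.78 at 1 h), 19:20349230-20349486 (5.35 and 7.31, then 7.08 and 4.62) and 19:23485314-23485639 (4.20 and 9.40, then 3.75 and 4.20). The region 19:53798425-53798603 in the 52 Mb cluster kept a peak in 1 library at 1 h. From 1 h to 24 h the strongest losses were 19:20349230-20349486, 19:56342022-56342293, 19:57150579-57150883 and 19:21439581-21439862, at folds of 3.33 to 7.08 at 1 h. The lost regions had been narrow: at 0 h the median width of the 19 was 288 and 194 bp, against 840.5 and 773.5 bp for the 250 cluster regions held by all 4 libraries of 0 h and 24 h, and their median fold was 5.35 and 5.22 against 10.3 and 11.2. This was not particular to the clusters. Over all regions lost at 24 h the median width was 279 and 205 bp and the median fold 4.96 and 5.22. In the rest of chromosome 19 these were 247 and 184 bp and 4.50 and 4.86.

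Gained regions were low as well. Over the 6, the median fold in the 24 h libraries was 5.52 and 5.41, beside 5.30 and 5.11 over all gained regions. The strongest at 24 h, 19:23248129-23248480 in the 20 Mb cluster, had folds of 4.58 and 5.89 at 1 h and 5.74 and 6.79 at 24 h, and no peak at 0 h. It was followed by 19:52459260-52459471 (5.78 and 6.13 at 24 h) and 19:53875498-53875798 (5.30 and 5.11) in the 52 Mb cluster. The other 3, 19:23504277-23504450, 19:22178186-22178485 and 19:21150879-21151076, lay in the 20 Mb cluster with folds of 3.39 to 5.78. At 1 h, 19:22178186-22178485 and 19:23248129-23248480 were already present, and 19:57237417-57237632 and 19:22918835-22919155 were gained at 1 h without a peak at 24 h. The gains from 1 h to 24 h were 19:21150879-21151076 and 19:56685938-56686330, of which the second also had a peak in both 0 h libraries.

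Regions that stayed open showed no common shift in rank. Over the 245 held by all 6 libraries, the median change of the mean fold percentile from 0 h to 24 h was 0.0415 points, beside -1.20 in the rest of chromosome 19 and -1.12 over all 72695 such regions. A fall of more than 5 points was seen in 52 (21.2%), beside 33.9% and 36.1%, and a rise of that size in 41 (16.7%), beside 16.5% and 24.9%. A region near the top of a list has little room to move in rank, and these regions stood higher to begin with. Both 24 h values were below both 0 h values in 52 regions (21.2%, background 26.4%) and above them in 44 (18.0%, background 20.0%). From 0 h to 1 h it was 41 below (16.7%, background 19.2%) and 51 above (20.8%, background 23.4%), and from 1 h to 24 h 59 below (24.1%, background 27.3%) and 47 above (19.2%, background 16.4%).

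The largest shifts among these regions differed in their timing. The largest fall was at 19:56195122-56195740 in the 56 Mb cluster, with folds of 8.37 and 9.32 in the 0 h libraries, 4.58 and 5.03 in the 1 h ones, and 4.36 and 3.58 in the 24 h ones, so most of it was seen by 1 h. At 19:23707887-23708757 in the 20 Mb cluster it came later, with 10.7 and 7.85, 9.23 and 8.91, and 5.74 and 3.81. These regions dropped by 58.9 and 50.1 percentile points from 0 h to 24 h. The next falls were 33.2 points each, at 19:56653268-56654150 and 19:22193437-22193973. At the second of these the 24 h libraries lay far apart, at percentiles of 60.2 and 24.6. The largest rise was at 19:53173276-53173682 in the 52 Mb cluster, with folds of 4.96 and 4.18 in the 0 h libraries, 6.67 and 7.57 in the 1 h ones, and 8.18 and 10.6 in the 24 h ones, a change of 49.6 points. At 19:23643237-23644014 in the 20 Mb cluster folds were 4.20 and 4.55, 6.25 and 8.83, and 7.98 and 8.85, a change of 47.6 points. The rises at 19:23737419-23737863 and 19:52303646-52303935 were 43.6 and 41.1 points. These 8 regions were picked as the extremes of 245, and their values carry no test.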

How the data were processed

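ATAC-seq peaks of 6 22Rv1 libraries were used, 1 list per library and 2 libraries per time. The build was hg19 and the tools were Bowtie2, MACS2, fastp and FastQC, per the submitters' processing notes. Their versions, and whether reads were shifted or duplicates removed, are not given in the sources used here. For each peak, the fold (a ratio of pileup to local background), the −log10 p, the −log10 q and its score (the −log10 q times 10, without decimals) are the authors' deposited values. The lists held 101755 to 125396 peaks on the 22 autosomes and X, and the lowest −log10 q was 1.30 to 1.32 in each. How far depth set the number of weak peaks was not tested.

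The members and lists were chosen with earlier results of these data known. Peaks were merged over the 6 lists by at least 1 bp. Width and fold were ranked within each whole list. Spans counted for density run from the first to the last region of a chromosome, without the longest gap of each chromosome (3.10 Mb on chromosome 19). Sets within a library were compared by exact two-sided sign-flip permutation tests, times by exact permutation tests of 2 libraries against 2, with Benjamini-Hochberg adjustment. Lost and gained regions were counted, not tested. A whole-number pileup, assuming a pseudocount of 1 and a Poisson p, matched the −log10 p within 0.001 for 100% of peaks. The calculations were tested on simulated lists.

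Regions were named by rule: the 8 strongest and 3 weakest held by all 6 libraries, the 8 strongest lost and gained at 24 h against 0 h, the 4 strongest in the other comparisons, the 3 widest, the longest stretch without a peak per cluster, and the 4 largest rises and falls without overlap. The strong region lost at 24 h is one of them. Lost and gained regions were ranked by their strength over the libraries of the time that held them. Promoter counts and motifs need the hg19 sequence or annotation and were not run. RefSeq names on GRCh38.p14 matched all 30, 35 and 57 listed genes. Alternatives were a −log10 q of at least 5 or 10, lists of one length, membership by summit, 500 bp summit windows, other comparison sets, widths in bp, ranks by −log10 p, pairing by replicate number and leaving out each library. The tests between clusters, and the alternatives for single clusters, were added after seeing the data. Python 3.11.15, numpy 2.4.6, pandas 2.3.3, scipy 1.17.1 and matplotlib 3.10.9 were used.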

Additional observations from a re-analysis of the deposited data

How the results depend on the processing

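The lower density, greater width and higher fold rank of the 3 clusters together against the rest of chromosome 19 kept their direction and their exact permutation p of 0.03125 under every alternative that uses 6 libraries, but the log2 density ratio went from -0.95 to -0.13 against the rest of the autosomes and X and to -0.44 against chromosomes 16, 17 and 22. With 1 library left out the p is 0.0625, the smallest that 5 libraries allow, and the values ran from -0.948 to -0.941 (log2 density ratio), 16.98 to 17.9 (width percentile), 17.3 to 18.7 (fold percentile) and, for the fold percentile of the 20 Mb cluster alone, 14.9 to 17.4. That last result fell to 3.69 (exact permutation p = 0.125) with ranks by −log10 p. Against the rest of the autosomes and X, the log2 density ratio reversed to 0.0678 (exact permutation p = 0.188) in the 52 Mb cluster and 0.25 (p = 0.03125) in the 56 Mb cluster.

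The change of the log2 density ratio between times reversed to -0.00603 at 1 h against 0 h with lists of one length. It reversed to 0.0522 and 0.11 at 24 h against 0 h, and to 0.0488 and 0.0583 at 24 h against 1 h, with a −log10 q of at least 5 and 10. The cause was not tested. With 1 library left out it ran from 0.00357 to 0.00898, from -0.0293 to -0.00865 and from -0.0356 to -0.0149 in these 3 comparisons, and the change of density from -3.45 to -0.575, from -4.83 to -1.95 and from -2.53 to -0.230 peaks per Mb. The time points share replicate numbers. Deviations of same-numbered libraries correlated by 0.0419, 0.0474 and 0.0169, so the numbers were not taken as pairs. With the replicate block the density changes were -2.01, -3.39 and -1.38 as without it, at an exact permutation p of 0.5, the smallest that 2 pairs allow.

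Counts of lost and gained regions rest on few regions. With strong peaks only, 0 were lost and 0 gained at 1 h, 1 lost and 0 gained at 24 h against 0 h, and 0 and 0 at 24 h against 1 h. With lists of one length, 7 were gained at 1 h (2.65%, background 5.21%) and 10 at 24 h against 0 h (3.89%, background 9.27%). At 24 h against 1 h, 7 were then lost (2.65%, background 5.15%) and 5 gained (1.95%, background 4.85%). With a −log10 q of at least 5, 10 were gained at 24 h against 0 h (4.12%, background 7.09%). At 24 h against 1 h that setting gave 4 lost (1.63%, background 5.96%) and 5 gained (2.06%, background 4.45%). Summit windows gave 4 gained there (1.48%, background 4.19%). Of the 19 regions lost at 24 h against 0 h, 14 remained so with lists of one length, 10 with a −log10 q of at least 5 and 19 with summit windows. Of the 14 lost at 1 h, 9 and 6 remained under the former 2 settings, and of the 13 lost at 24 h against 1 h, 5 and 1. Of the 4 gained at 1 h, 2 and 0 remained, of the 6 gained at 24 h against 0 h, 5 and 3, and of the 2 gained at 24 h against 1 h, 2 and 0. Leaving out a library loosens the definition, since 1 library then stands for a time: 20 to 34 were lost and 10 to 19 gained at 1 h, 25 to 42 and 9 to 28 at 24 h against 0 h, and 18 to 31 and 5 to 25 at 24 h against 1 h. With each library left out, the share of cluster regions lost or gained was below that over all regions in every comparison. The median percentile change of the 245 constant regions from 0 h to 24 h then ran from -0.915 to 0.597.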
